A study of Mus musculus with 4 samples.

Results

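The fracture callus of control mice was compared with the trabecular bone of control mice by single-cell RNA sequencing, with 1 library of each tissue. The mice were 20-week-old C57BL/6J males and both tissues were taken at week 2. The control animals received placebo instead of prednisolone, which the labels give as a subcutaneous pellet for every library and the study's text as daily injection in the fracture model. Marrow was flushed out of the bone, and what was left was crushed and digested with collagenase, dispase and DNase. The number of mice behind a library is not given in the sources used here. A cell was any barcode with at least 500 UMIs (unique molecular identifiers, each marking 1 captured RNA molecule), at least 200 genes and at most 10% mitochondrial UMIs. This left 7133 cells of callus and 3977 of trabecular bone, 11110 of the 23216 cells that the same rule found in the 4 libraries of the series. Neither library of prednisolone-treated mice was used. The comparison had no replicates, so no test was run, and a gene was called higher or lower in callus at a 4-fold difference. All intervals are 95% intervals that cover counting error only. Tissue, fracture and library coincide, and their parts in a difference cannot be told apart.

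A fracture heals largely through a soft callus of cartilage. Its chondrocytes lay down type II collagen and aggrecan, enlarge, switch to type X collagen, and are replaced by bone after vessels and osteoclasts enter. Trabecular bone is a lattice of mineral that encloses red marrow, where neutrophils, red cells, B cells and platelets are formed, so that bone digests hold marrow cells unless these are removed. Neutrophil precursors fill their granules in order, the azurophil granules first and the specific granules next, and the factors of the CCAAT/enhancer binding protein (C/EBP) family drive these genes.

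The callus library held 95852254 UMIs and the trabecular bone library 41239842, of which 93.0% and 86.5% lay in cells. A cell had a median of 4550 UMIs and 1690 genes in callus and of 6337 UMIs and 1422 genes in trabecular bone. The libraries shared 10 cell barcodes, where a random draw from the barcode list would give 4.17. RNA free in the suspension was read from barcodes of 20 to 99 UMIs. Levels are given as CPM, the UMIs of a gene per 1000000 UMIs. Free RNA of trabecular bone held 36477 CPM of the neutrophil gene S100a8 and 105273 of the beta globin gene Hbb-bs, and that of callus 22548 CPM of Col2a1 and 11985 of Col10a1, both cartilage genes. At least 1 S100a8 UMI was found in 99.6% of all trabecular bone cells, and at least 1 Col2a1 UMI in 98.0% of callus cells, blood cells included. Shares of cells with a UMI were therefore not read as expression.

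Promoters are shown for the neutrophil granule genes with a C/EBP motif and for Col10a1, the genes at opposite ends of the comparison. They are the 250 bases before the RefSeq start on GRCm38.p6, 5′ to 3′ on the strand of the gene, with the motif in capitals. The C/EBP motif was TTGCNNAA on either strand. The windows are Ltf at chr9:111019042-111019291 (plus strand), Ngp at chr9:110419558-110419807 (plus strand), Lcn2 at chr2:32387740-32387989 (minus strand), Mmp8 at chr9:7558179-7558428 (plus strand) and Ly6g at chr15:75155011-75155260 (plus strand).
Ltf: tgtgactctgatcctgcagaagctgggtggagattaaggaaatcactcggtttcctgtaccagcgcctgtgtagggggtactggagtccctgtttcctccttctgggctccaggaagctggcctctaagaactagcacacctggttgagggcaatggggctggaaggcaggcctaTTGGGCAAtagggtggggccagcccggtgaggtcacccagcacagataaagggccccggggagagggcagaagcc
Ngp: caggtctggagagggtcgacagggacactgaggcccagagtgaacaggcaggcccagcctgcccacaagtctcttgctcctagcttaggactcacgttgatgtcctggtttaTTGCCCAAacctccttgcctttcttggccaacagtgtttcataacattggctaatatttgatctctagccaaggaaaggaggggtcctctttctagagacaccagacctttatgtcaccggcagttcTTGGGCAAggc
Lcn2: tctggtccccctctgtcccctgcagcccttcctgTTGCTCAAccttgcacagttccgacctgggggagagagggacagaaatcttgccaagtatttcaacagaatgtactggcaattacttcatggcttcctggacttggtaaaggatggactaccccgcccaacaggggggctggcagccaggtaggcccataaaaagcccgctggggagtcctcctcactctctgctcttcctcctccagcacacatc
Mmp8: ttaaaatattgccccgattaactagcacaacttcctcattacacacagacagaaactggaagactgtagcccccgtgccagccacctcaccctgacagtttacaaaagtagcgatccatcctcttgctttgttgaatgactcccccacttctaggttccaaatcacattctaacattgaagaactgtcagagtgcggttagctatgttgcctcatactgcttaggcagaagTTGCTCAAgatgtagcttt
Ly6g: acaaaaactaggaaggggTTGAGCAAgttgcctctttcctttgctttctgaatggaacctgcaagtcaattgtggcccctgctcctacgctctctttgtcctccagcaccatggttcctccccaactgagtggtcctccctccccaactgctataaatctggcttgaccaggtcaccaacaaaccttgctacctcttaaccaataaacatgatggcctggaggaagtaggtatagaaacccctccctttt
Of the 8 specific granule genes with a RefSeq promoter, 5 (62.5%) held TTGCNNAA, against 9.55% of all 27025 promoters of the same length. The match lay 75 bases before the start in Ltf, 138 and 11 in Ngp, 216 in Lcn2, 19 in Mmp8 and 232 in Ly6g. Camp, Chil3 and Cd177 held none. Among the azurophil granule genes 0 of 5 promoters held TTGCNNAA, and among the mature neutrophil genes 3 of 12 did. A match is a description of these letters and shows no binding.

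Col10a1, which encodes type X collagen of hypertrophic cartilage, is preceded by chr10:34389731-34389980 (plus strand), shown with ACAAAG, a core motif of SOX factors, and TATAAA, the TATA box, in capitals.
Col10a1: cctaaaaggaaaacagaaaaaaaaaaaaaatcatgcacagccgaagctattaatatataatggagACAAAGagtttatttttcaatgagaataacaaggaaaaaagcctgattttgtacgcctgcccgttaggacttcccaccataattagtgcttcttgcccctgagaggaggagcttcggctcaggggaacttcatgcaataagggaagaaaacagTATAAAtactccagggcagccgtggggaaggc
ACAAAG lay 185 and TATAAA 32 bases before the start. Among the hypertrophic cartilage genes 4 of 9 promoters (44.4%) held TATAAA, against 12.97% of all, and 4 of 9 held ACAAAG, against 16.5%. None of the 12 cartilage matrix promoters held ACAAAG. Both motifs were searched on both strands.

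Expression was summed over all cells of a library and given as CPM, and log2 ratios of callus over trabecular bone had 1 CPM added to each side. Of 32285 genes, 10554 reached 5 CPM in 1 of the libraries, and their median log2 ratio was 0.25. Callus was at least 4-fold higher in 1807 of them (17.1%) and at least 4-fold lower in 823 (7.8%). The genes nearest the limits had log2 ratios of 2.0004 inside and 1.997 outside on the higher side, and of -2.005 inside and -1.998 outside on the lower side. At 16-fold the counts were 594 and 99. A total of 111 of the tested genes had no UMI in trabecular bone and none had no UMI in callus. In callus 195 genes made up 50% of the UMIs, and in trabecular bone 95 did. Because CPM is a share of the library, the abundance of one kind of cell lowers the CPM of all others. Hematopoietic cells, as named below, held 15.1% of the cell UMIs of callus and 99.5% of those of trabecular bone. With each cell weighted equally, by the mean of CPM per cell, 81.6% of the called genes were higher in callus instead of 68.7%, with 1560 higher and 352 lower and a median log2 ratio of 0.58. With hematopoietic cells alone, a choice made after seeing the data, the share was 82.4%, with 929 higher and 199 lower and a median of 0.52.

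**Figure D1:**
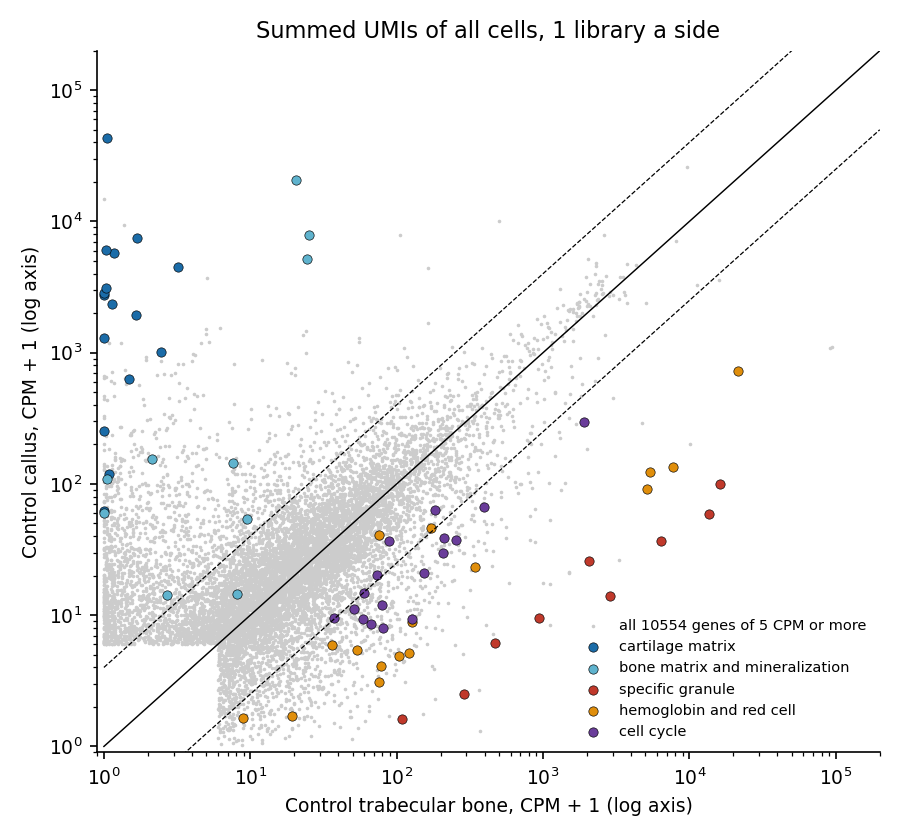
CPM + 1 of each of the 10554 tested genes in control trabecular bone (x axis, log scale) and control callus (y axis, log scale), with 5 gene lists in color, the line of equal level and dashed lines at 4-fold. Cartilage matrix genes lie at the left edge, far above the upper line, and specific granule genes far below the lower line.

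Cartilage matrix genes had the highest median ratio of the 31 lists. All 16 were called higher in callus, with a median log2 ratio of 10.74. Their summed level was 83387 CPM in callus and 5.97 in trabecular bone. Col2a1, the chain of type II collagen, had 3851581 UMIs (43197 CPM) in callus and 2 UMIs in trabecular bone, the highest log2 ratio of all genes (15.32). The interval of its ratio was wide, from 213177 to 6358713-fold. Acan, which encodes the proteoglycan aggrecan, had 514662 UMIs against 6, and Hapln1, the link protein that ties aggrecan to hyaluronan, 278151 against 1. Col9a1 and Col9a2, chains of type IX collagen, had no UMI in trabecular bone and were at least 32551-fold and 33803-fold higher in callus against a floor of 3 UMIs. Comp, which encodes cartilage oligomeric matrix protein, was among the few with a source in trabecular bone. It had 402692 UMIs (4516 CPM) against 79 UMIs (2.22 CPM), and 79.7% of the 79 came from the 13 bone and stroma cells of that library. The lowest log2 ratio of the list, 5.96, was that of Epyc, a small proteoglycan of growth plate cartilage. It stood at 61.1 CPM against 0 UMIs, at least 726-fold. Its ratio was limited by its level in callus and the 1 CPM added, so the size of its difference is not known.

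Transcription factors of chondrocytes and osteoblasts were higher in callus in 8 of 11 tested genes, with a median log2 ratio of 3.70. Sox9, the master factor of chondrocytes, stood at 1188 CPM in callus, and trabecular bone had 3 UMIs. Sp7, needed for osteoblast formation, had 4880 UMIs against 4, a 488-fold difference (interval 190 to 1791). Foxa2 and Foxa3, factors of hypertrophic chondrocytes, had 1072 and 2797 UMIs in callus and none in trabecular bone. The difference was smaller for factors that blood cells also use. Runx2 stood at 193 CPM against 24.4, a 7.91-fold difference (interval 7.39 to 8.48). In trabecular bone 38.1% of its UMIs came from neutrophils, which held 50.7% of all cell UMIs there. Sox6, Mef2c and Runx3 were 3.73, 3.06 and 2.92-fold higher in callus, under the 4-fold limit. In trabecular bone 92.6% of the Sox6 UMIs came from erythroid cells, where Sox6 also acts.

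Genes of hypertrophic cartilage, the stage before bone replaces it, were called higher in 10 of 10, with a median log2 ratio of 8.06. Col10a1 had 1318369 UMIs (14786 CPM) in callus and 0 in trabecular bone, at least 175726-fold. Ihh, the hedgehog ligand that paces chondrocyte growth, had 12077 UMIs against 0, and Panx3, a channel protein, 28071 against 0. Ibsp, which encodes bone sialoprotein, had 844302 UMIs against 13. Mmp13, the collagenase that opens the cartilage matrix, was 587-fold higher (interval 448 to 787). The least different members were also expressed by blood cells. Spp1 (osteopontin) stood at 7847 CPM against 104 and Vegfa, the main growth factor of vessels, at 647 against 75.7, and in trabecular bone 87.0% and 70.7% of their UMIs came from neutrophils.

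Bone matrix and mineralization genes were higher in 9 of 10 tested, with a median log2 ratio of 6.04. Col1a1 and Col1a2, the chains of type I collagen, stood at 5186 and 7929 CPM in callus and at 23.3 and 24.1 CPM in trabecular bone. Of their UMIs in callus 50.4% and 71.3% came from the cartilage class, which held 77.2% of all UMIs of callus cells. In trabecular bone 91.1% and 97.9% came from the 13 bone and stroma cells. The cartilage class includes 86 cells of a cluster with Col1a1 and Col1a2 among its leading genes. The same holds for the leading genes of the cluster named osteoblast or osteocyte. Sparc, a collagen-binding protein of bone, was 1072-fold higher (interval 995 to 1157). Dmp1, an osteocyte gene, had 5250 UMIs against 0. The osteocalcin genes, which mark mature osteoblasts, differed least. Bglap had 4764 UMIs (53.4 CPM) against 302 (8.47 CPM), a 6.31-fold difference, and Bglap2 had 1204 (13.5 CPM) against 255 (7.15 CPM), 1.89-fold and not called. In trabecular bone 97.0% of the Bglap UMIs came from the same 13 of 3977 cells. Bglap and Bglap2 are near-identical neighbours, and how their reads were split is uncertain. Sost and Mepe, markers of osteocytes, had 55 and 33 UMIs in callus and 0 in trabecular bone and did not reach 5 CPM.

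The matrix that callus shares with fibrous tissue, its proteases and its growth factors were higher in callus as well. Of 18 fibrous matrix genes 17 were called higher, with a median log2 ratio of 5.71. Postn (periostin), made by the cells that start a callus, stood at 180 CPM against 2.47. The exception was Thbs1 (thrombospondin 1), at 863 CPM against 712, of which 85.4% came from neutrophils in trabecular bone. Of 9 proteases and inhibitors 8 were higher, led by Timp1, an inhibitor of matrix proteases, at 576 CPM against 0.421. Timp2 was 2.09-fold higher. Of 16 growth factors 15 were higher, with a median log2 ratio of 5.61. Ccn2 (connective tissue growth factor) had 106213 UMIs against 11, Bmp2, which is required for a fracture to heal, 17930 against 22, and Gdf5, a factor of joint and early cartilage, 9479 against 0. Tgfb1 differed by 1.48-fold (interval 1.43 to 1.54), whereas its relative Tgfb2 was 315-fold higher (interval 226 to 452).

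Osteoclasts resorb bone and mineralized cartilage under the control of RANKL (Tnfsf11), its decoy receptor OPG (Tnfrsf11b) and its receptor RANK (Tnfrsf11a). The genes of RANKL and OPG were higher in callus. Tnfsf11 had 1687 UMIs (18.9 CPM) against 9 (0.252 CPM), 75.0-fold, and Tnfrsf11b 12429 (139 CPM) against 5 (0.140 CPM), 994-fold. Of these UMIs in callus 78.5% and 92.7% came from the cartilage class, which held 77.2% of all UMIs of callus cells. Tnfrsf11a, at 4.77 against 1.04 CPM, did not reach 5 CPM, and 70.8% of its UMIs in callus came from osteoclasts. Of 8 tested osteoclast genes 4 were higher and 1 lower. Ctsk, the collagen-cleaving protease of osteoclasts, had 21932 UMIs against 44 (199-fold, interval 148 to 274), of which 71.8% came from the 118 osteoclasts of callus. Acp5, the acid phosphatase used to stain osteoclasts, was 5.98-fold higher. Mmp9 went the other way, at 92.7 CPM in callus and 839 in trabecular bone. Its source differed, with 60.5% of the UMIs from osteoclasts in callus and 96.0% from neutrophils in trabecular bone.

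Genes of glycolysis and low oxygen did not move as a block. Of 18 tested, 6 were called higher and none lower, with a median log2 ratio of 1.29. P4ha1 and P4ha2, which hydroxylate collagen and respond to low oxygen, were 41.0 and 965-fold higher, Slc2a1, the main glucose transporter, 11.7-fold and Bnip3, a mitochondrial clearance gene, 17.7-fold. The enzymes of the pathway itself lay closer to equality, with Ldha 1.40-fold higher in callus and Gapdh 1.97-fold higher in trabecular bone. Endothelial genes were higher in 4 of 6 tested. Cdh5, the cadherin of vessel junctions, was 8.62-fold higher and Plvap, a protein of fenestrated vessels, 25.9-fold. With 1 CPM added the log2 ratio of Plvap was 2.48, so its 25.9-fold rested on a low level in trabecular bone. Pecam1 was 1.28-fold higher, and in trabecular bone the largest share of its UMIs (26.6%) came from B cells. Cxcl12 and Kitl, which hold stem cells in the marrow niche, were 11.8 and 12.3-fold higher in callus, at 12.2 and 5.16 CPM.

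**Figure D2:**
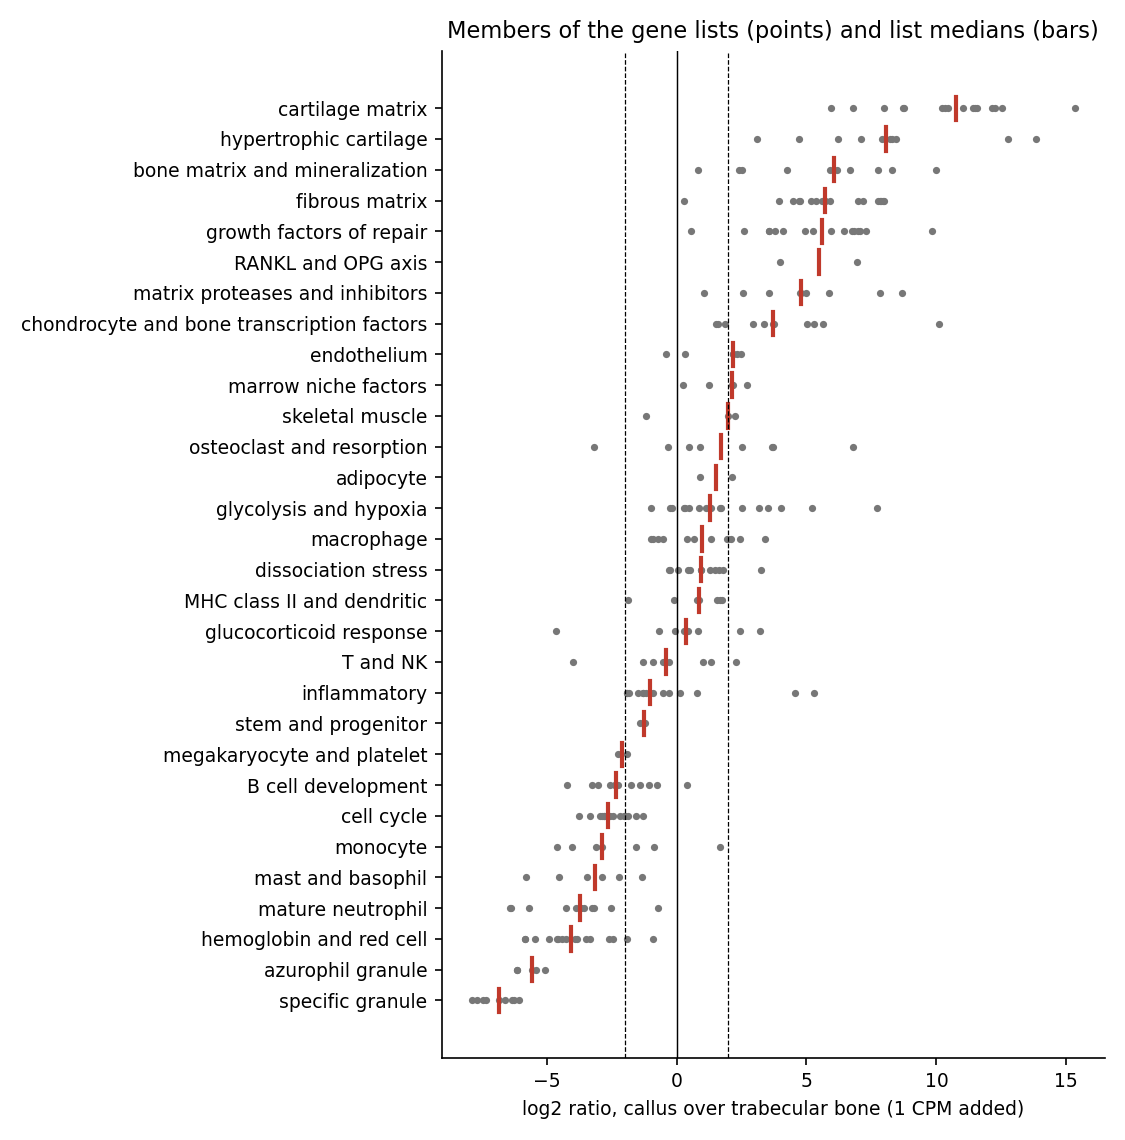
Log2 ratio of callus over trabecular bone, with 1 CPM added (x axis), of each member of 30 gene lists that reached 5 CPM (points) and the median of each list (bars), with dashed lines at 4-fold. Medians run from -6.85 for specific granule genes to 10.74 for cartilage matrix genes.

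Trabecular bone was the higher library for the genes of blood cell formation. All 9 specific granule genes were called lower in callus, with a median log2 ratio of -6.85, and their summed level was 246 CPM against 42885. Camp, an antimicrobial peptide, had 5133 UMIs (57.6 CPM) in callus and 485885 (13628 CPM) in trabecular bone, a 237-fold difference (interval 230 to 243). Ltf (lactoferrin) was 223-fold lower in callus, Ly6g, the surface antigen used to sort mouse neutrophils, 192-fold, Lcn2 (lipocalin 2) 177-fold and Ngp, a granule protein, 163-fold. Cebpe, the C/EBP factor required for these granules, had 56 UMIs (0.628 CPM) against 3842 (108 CPM). All 5 azurophil granule genes were lower, among them Elane (neutrophil elastase) at 20.3 CPM against 1497 and Mpo (myeloperoxidase) at 16.7 against 584. In trabecular bone 92.4% of the Elane UMIs came from 184 granulocyte-monocyte progenitors, and in callus 88.8% from 15 such cells.

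Genes of mature neutrophils were lower in 12 of 13, with a median log2 ratio of -3.70. S100a8 and S100a9, the subunits of calprotectin, stood at 91015 and 94013 CPM in trabecular bone and at 1092 and 1106 CPM in callus. Cxcr2, a chemokine receptor of mature neutrophils, was 14.3-fold lower. Clec4d, a pattern recognition receptor, was 1.66-fold lower and not called. Hemoglobin and red cell genes were lower in 14 of 16, and hemoglobin made up 0.106% of cell UMIs in callus and 3.99% in trabecular bone. Hba-a1 (alpha globin, with a near-identical copy in Hba-a2) was 58.1-fold lower, Klf1, the erythroid master factor, 25.5-fold, and the transferrin receptor Tfrc, which other dividing cells use, 1.89-fold.

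Cell cycle genes were lower in callus in 13 of 17, with a median log2 ratio of -2.65. Mki67, the proliferation marker, stood at 36.2 CPM against 254 and Rrm2, a subunit of ribonucleotide reductase, at 8.39 against 126. In trabecular bone the largest source of Mki67 was the erythroid class (38.8%), which held 10.5% of all cell UMIs there. In callus it was the cartilage class (45.1%), which held 77.2% of all cell UMIs, so Mki67 was below average in that class. Of 13 B cell development genes 8 were lower. Vpreb3, of the pre-B cell stage, was 22.3-fold lower and Rag1, which rearranges antibody genes, 17.9-fold, on 26 and 186 UMIs. Ighd, the antibody class of mature B cells, was 1.38-fold higher. Mast cell and basophil genes were lower in 5 of 6, among them Prss34, a basophil protease, at 4.09 CPM against 282. Cma1, a protease of tissue mast cells, had 321 UMIs in callus and 3 in trabecular bone, a ratio of 42.8 (interval 14.5 to 209), but did not reach 5 CPM. The lowest log2 ratio of all genes, -8.14, was that of Ighg2c, an antibody heavy chain. Of its 13162 UMIs in trabecular bone 97.0% came from 10 plasma cells.

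Lists for other immune genes were mixed. Over all tested genes 17.1% were called higher and 7.8% lower. Hematopoietic cells held 15.1% of the cell UMIs of callus and 99.5% of those of trabecular bone. A lower CPM of an immune gene over all cells need not be a lower level in the cells that express it. Macrophage genes were higher in 3 of 12 and lower in none. C1qa and C1qb, of the complement C1q complex, were 9.24 and 6.07-fold higher, Adgre1 (F4/80) 2.16-fold lower and Csf1r, the receptor of Csf1, 1.45-fold lower. Monocyte genes were lower in 4 of 7, with Ly6c2 at 35.3 CPM against 875 and Ccr2 at 14.7 against 114. F13a1, counted as a monocyte gene, was 3.23-fold higher in callus, where 93.7% of its UMIs came from the cartilage class. None of 7 genes of antigen presentation (MHC class II) and dendritic cells was called (median 0.88), although H2-Eb1 was 3.39-fold higher. Inflammatory genes were called higher in 2 of 15 and lower in none. These were Ptgs2, which makes prostaglandins, at 1297 CPM against 54.7, and the neutrophil attractant Cxcl1, at 95.1 against 1.43, and the cartilage class held 91.8% and 89.6% of their UMIs in callus. Il1b was 3.58-fold lower in callus and Cxcl2 2.43-fold. The median of the list was -1.04. T and NK cell genes had 1 of 8 higher (Il2rb, 5.37-fold) and 1 lower (Nkg7, 18.2-fold), and Nkg7 came mostly (77.4%) from granulocyte-monocyte progenitors in trabecular bone.

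Lists with other cells or handling in view were short. Their counts stand beside 17.1% called higher and 7.8% lower over all tested genes. Skeletal muscle was called for 1 of 3 tested genes (Acta1, 447 UMIs against 9), of which 94.9% in callus lay in the cartilage class. Free RNA held 12.01 CPM of Acta1 in callus and 55.2 in trabecular bone, more than the cells did (5.01 and 0.252). No UMI of Myh4 was found in either library. Adipoq and Plin1, which define adipocytes, had 21 and 11 UMIs in callus and 5 and 1 in trabecular bone, and 1 of 2 tested adipocyte genes was called. None of 4 tested sex-linked genes was. Of 12 genes that tissue digestion raises 1 was called, Egr1 at 1087 CPM against 112, and Fos was 1.42-fold higher. Among 8 glucocorticoid response genes Sgk1 and Klf9 were 9.44 and 5.56-fold higher in callus, Hsd11b1, which activates glucocorticoids, was 31.6-fold lower, and Fkbp5 differed by 1.24-fold. Stem cell genes were lower without a call (Kit 2.54-fold and Cd34 2.98-fold), and the platelet gene Pf4 was 5.17-fold lower but turned to a log2 ratio of 0.29 with the mean of CPM per cell.

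The make-up of the cells was read from a joint clustering of both libraries, with clusters named from marker genes. Of 41 clusters 38 passed the naming rule. Cluster 24, with 96 callus cells, passed 11 of 11 chondrocyte markers. It was left unnamed because 2 of its 10 leading genes marked bone and stroma and 0 marked cartilage. Clusters were split by library. In 29 of them, with 9597 of the 11110 cells, at least 90% of the cells came from 1 library, so that such a cluster may be the library and not a type of cell. The cartilage class held 2691 callus cells (37.7%, interval 36.6 to 38.9) and 77.2% of the UMIs of callus cells, at a median of 24090 UMIs a cell. It held 731 hypertrophic chondrocyte-like cells and 1960 in clusters named chondrocyte. Cluster 1, with 1223 of the 1960 cells, passed 11 of 11 chondrocyte markers. Its 10 leading genes held none of these, but the hypertrophic markers Ibsp, Panx3 and Pth1r. The split into 731 and 1960 cells therefore does not divide hypertrophic from other cartilage cells cleanly. Cluster 25, with 86 of the 731 cells, passed 6 of 7 hypertrophic markers. Col1a1, Wif1, Col13a1 and Col1a2 were among its leading genes and among those of the osteoblast-like cluster 29. Of the 1960 cells 678 lay in clusters 5 and 30, which passed 11 of 11 chondrocyte markers. Their 10 leading genes held none of these, but 1 marker of stromal cells (Aspn). Epyc, of the cartilage matrix list, was also among the 10 of each. Cluster 33, with 59 cells, passed 10 of 11 chondrocyte markers and also had none of them among its leading genes. It shared the leading genes Scara3, Ogn, Abi3bp, Cthrc1 and Igf1 with the stromal-like cluster 32. Without clusters 5 and 30 the cartilage class held 2013 cells (28.2%), with clusters 25 and 33 still included. No trabecular bone cell fell in the class, which allows a share of up to 0.0927% for counting error under this naming. With markers scored against the mean of the other clusters 40 trabecular bone cells (1.01%) did, and at Leiden resolutions of 0.5 and 2 it was 3 and 1. Osteoclast-like cells were 118 in callus (1.65%, interval 1.37 to 1.98) and 0 in trabecular bone. Bone and stroma cells were 152 (2.13%) against 13 (0.327%), and 68 of the 152 but none of the 13 lay in the osteoblast-like cluster. The 13 held 97.0% of the Bglap and 91.1% of the Col1a1 UMIs of their library, so the name of their clusters, stromal-like, does not show that osteoblasts were absent. Vessel cells were 81 (1.14%) against 4 (0.101%).

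**Figure D3:**
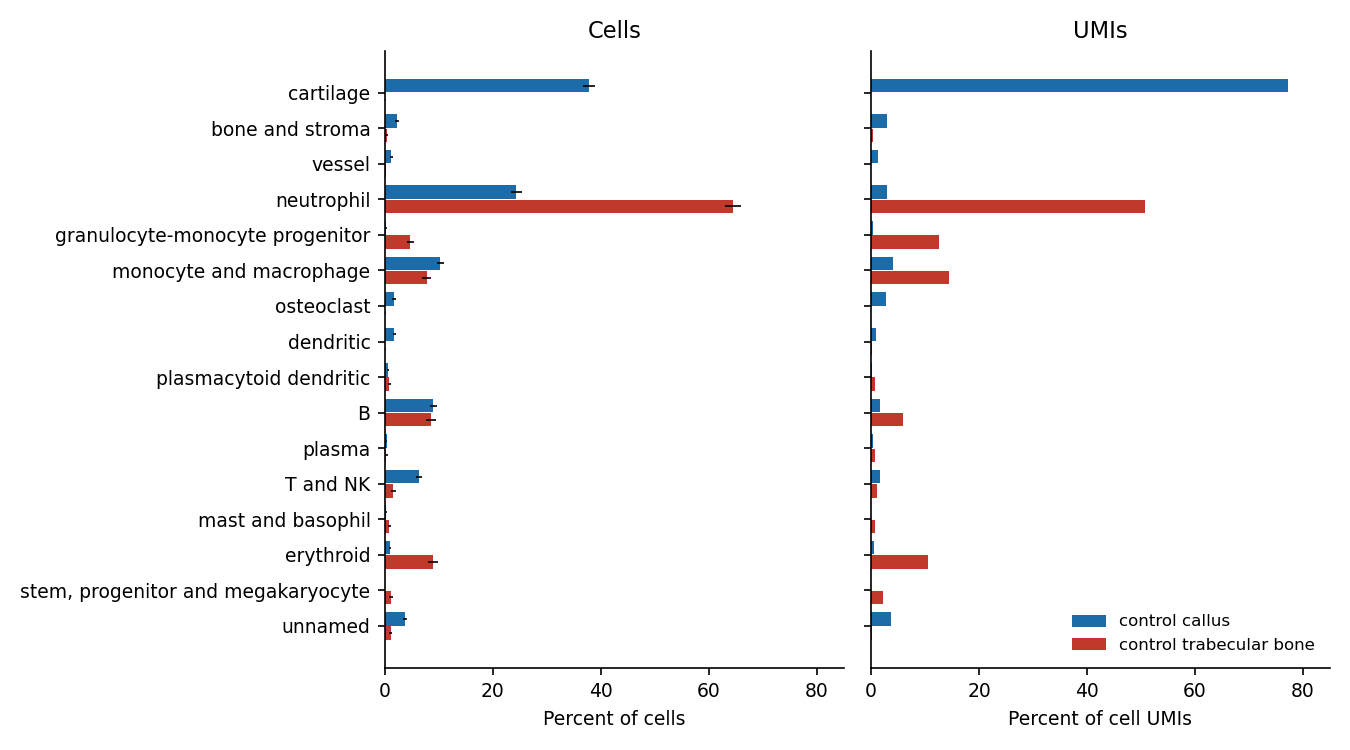
Share of cells (left, percent, with exact 95% binomial intervals) and of cell UMIs (right, percent) in each class, for control callus (blue) and control trabecular bone (red). Cartilage held 37.7% of callus cells but 77.2% of their UMIs, and neutrophils 24.4% of callus cells but 2.86% of their UMIs.

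Neutrophils were the largest class of trabecular bone, with 2564 cells (64.5%, interval 63.0 to 66.0) and 50.7% of the UMIs. In callus they were 1737 cells (24.4%, interval 23.4 to 25.4). Of the callus neutrophils 1626 belonged to cluster 0, with no trabecular bone cell and a median of 1288.5 UMIs. The cluster passed 7 of 8 mature neutrophil markers, but its name rested on how markers were scored. With that cluster unnamed, neutrophils were 1.56% of callus cells, and with a minimum of 1000 genes a cell 2.56%. Each other cutoff for cells meant that clusters were formed and named again. With at least 1000 genes 17.2% of callus cells were left unnamed, against 3.69% in the main clustering. Clusters named immature neutrophil held 11 callus and 948 trabecular bone cells. Cluster 27, with 78 cells, all of callus, had the specific granule genes Ngp and Camp among its leading genes but was named mature neutrophil, having passed 8 of 8 of those markers. Granulocyte-monocyte progenitors were 15 (0.210%) against 184 (4.63%). With each library clustered alone callus had 89 (1.25%), and at resolutions of 0.5 and 2 trabecular bone had 2.87% and 2.77%. There were fewer erythroid cells in callus, 64 (0.897%) against 350 (8.80%). Cluster 36, with 44 cells (1.11%), all of trabecular bone, had Pf4 and Itga2b of platelet precursors but also Cd34, Flt3, Dntt and Mpo of early progenitors among its leading genes. It passed 3 of 5 markers of platelet precursors and 3 of 5 of granulocyte-monocyte progenitors, so no cell type is given for it here. B cells were 8.96% (interval 8.31 to 9.65) and 8.45% (interval 7.602 to 9.356), with overlapping intervals, but the order rested on the cutoff for cells and on the denominator. With at least 1000 genes a cell they were 0.782% and 7.69%, with a cutoff at 10% of the 99th percentile of UMIs among the 3000 largest barcodes (7535 UMIs in callus and 4791 in trabecular bone) 0.201% and 3.90%, and of hematopoietic cells 16.2% and 8.57%. Progenitor B cells among them were 15 and 84. T and NK cells were 448 (6.28%) against 61 (1.53%), but 0.536% against 1.58% with the percentile cutoff. Dendritic cells were 119 (1.67%) against 3 (0.0754%). With that cutoff no cluster was named dendritic, although the 3 trabecular bone cells had a median of 11204 UMIs. Clusters named monocyte or macrophage held 731 callus cells (10.2%) and 307 of trabecular bone (7.72%), a direction that turned with at least 1000 genes (3.72% and 5.71%) and with the percentile cutoff (3.25% and 10.2%). With 1000 genes 17.2% of callus and 5.74% of trabecular bone cells were unnamed, and with the percentile cutoff 4.95% and 2.01%. The part of the new naming in this turn was not tested. Of the 731 cells 545 belonged to cluster 7, which passed 6 of 7 monocyte markers. It had 0 of them among its 10 leading genes and 1 marker of another class, Il7r of innate lymphoid cells. Without it the callus share was 2.61%. All hematopoietic classes together were 55.3% of callus and 98.6% of trabecular bone cells, and within them neutrophils were 44.0% and 65.4%. With cluster 0 unnamed the callus values were 32.5% and 4.78%.

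To separate the level of a gene from the number of cells, UMIs were also summed within classes that had at least 30 cells in each library, with 5 CPM added before the log and markers left out of the counts. All the hematopoietic cells summed had 395 of 11916 tested genes higher (3.31%) and 94 lower (0.789%). In the neutrophil class 534 of 8092 genes were higher (6.6%) and 141 lower (1.74%), of which 426 and 141 stood at least 3 times over what free RNA would give. Without cluster 0 the counts were 121 and 66, and with every cell thinned to 1000 UMIs 404 and 140. In B cells 145 of 6782 were higher (2.14%) and 168 lower (2.48%), of which 94 and 168 stood 3 times over free RNA, and thinning to 1000 UMIs left 74 and 81. In T and NK cells 147 of 4822 were higher (3.05%) and 35 lower (0.726%), of which 99 and 35 stood 3 times over free RNA, and thinning left 87 and 13. In erythroid cells 31 of 5604 were higher (0.553%) and 21 lower (0.375%), of which 13 and 1 stood 3 times over free RNA. From cartilage matrix genes in callus and from hemoglobin in trabecular bone, which the compared cells should not make, free RNA was estimated at 11.3% of the UMIs of callus neutrophils and 1.26% of those of trabecular bone, and at 9.77% and 2.89% in B cells. Plasmacytoid dendritic cells, 40 in callus and 32 in trabecular bone, had 21 of 1378 genes higher (1.52%) and 12 lower (0.871%). In those of trabecular bone S100a8 stood at 9451 CPM, where the free RNA estimated from hemoglobin would give 312. That estimate took none of the lower genes of neutrophils, B cells or T and NK cells out of the counts. In erythroid cells of trabecular bone the estimate came from specific granule genes instead, at 20.5%. Standing 3 times over the hemoglobin estimate therefore does not show that a gene lower in callus was expressed by the cells counted.

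Neutrophils of trabecular bone included immature cells, so the mature neutrophil clusters were also compared alone, with 1726 cells of callus, cluster 27 included, and 1616 of trabecular bone. Of 6401 genes 471 were higher (7.36%) and 97 lower (1.52%). Clusters had been formed and named with some of these genes, so that values of Ly6g, Camp, Cxcr2, Csf3r and the antigen presentation and dendritic cell genes are a description. Specific granule genes were lower in 4 of 9, with a median log2 ratio of -1.13, against -3.48 with the immature cells included. Ly6g stood at 39.7 CPM against 567, Mmp8, the neutrophil collagenase, at 204 against 2015, and Camp, at 809 against 1313, was not called. Receptors of mature neutrophils differed less, with Cxcr2 at 275 CPM against 419 and the G-CSF receptor Csf3r at 507 against 818. Clec4d was higher in callus, at 2586 CPM against 758.

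Inflammatory genes had a median log2 ratio of 1.23 within these cells, where the median of all 6401 genes was 0.50, and 3 of 13 were called. Of the 1726 callus cells 1626 were cluster 0, which held no trabecular bone cell and was led by Cxcl3, Il1rn and Il1b, so these values describe the cluster. Il1rn, the antagonist of the IL-1 receptor, stood at 1214 CPM against 133, the chemokines Cxcl3 and Ccl3 at 552 and 390 against 87.6 and 67.5, and Il1b at 5137 against 3139. Antigen presentation and dendritic cell genes were higher in 5 of 5, but at low levels. H2-Aa had 191 UMIs (76.5 CPM) against 40 (4.92 CPM), of which free RNA of callus would give 15.3 CPM, and Itgax (CD11c) stood at 135 CPM against 7.87. The low oxygen genes Egln3 and P4ha1 stood at 180 and 98.6 CPM against 10.7 and 5.65. The highest log2 ratios among genes well over free RNA were those of Fmnl2 (5.14), Spp1 (4.68), Creb5 (4.57), Cstb (4.41), an inhibitor of cathepsins, and Fnip2 (4.26). The lowest were those of the acute phase protein Hp (-4.54), Lrg1 (-4.50), Ifitm6 (-4.08), Ly6g (-3.68) and Cnn2 (-3.65). The median cell had 1309.5 UMIs in callus and 4791.5 in trabecular bone, and cells were thinned for the whole neutrophil class but not for these clusters.

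**Figure D4:**
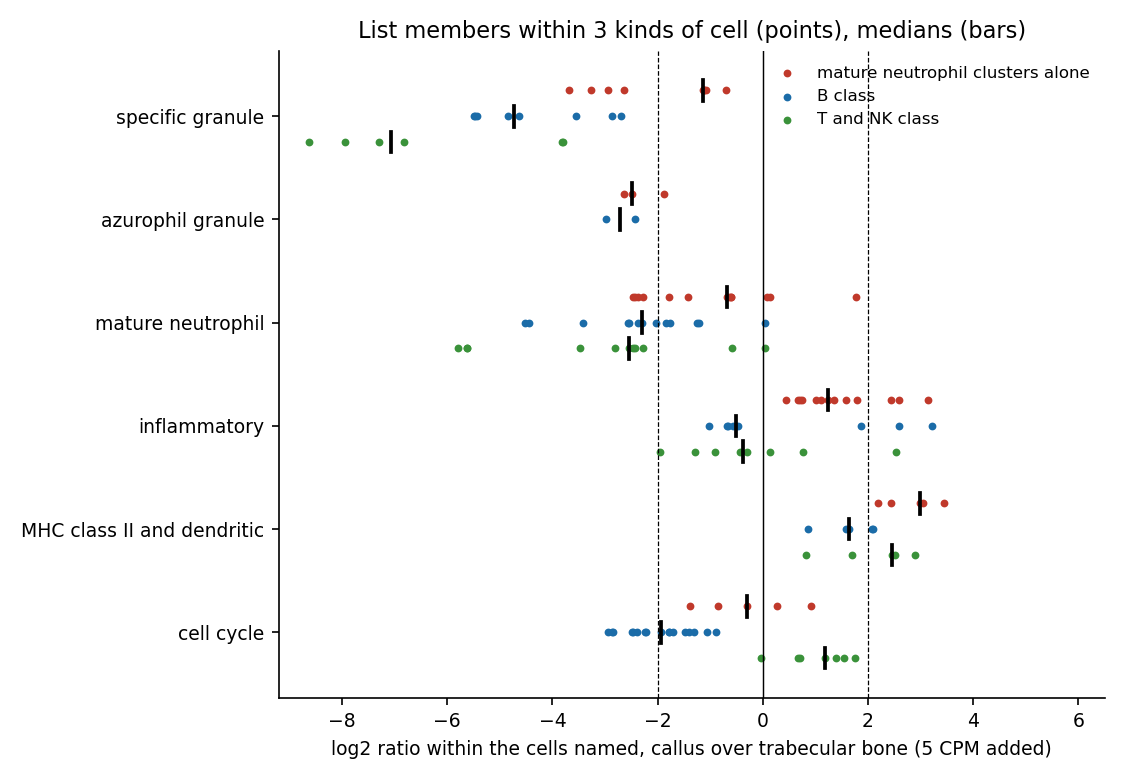
Log2 ratio of callus over trabecular bone, with 5 CPM added (x axis), of the members of 6 gene lists within the mature neutrophil clusters, B cells and T and NK cells (points), with list medians (bars) and dashed lines at 4-fold. Inflammatory genes have a median of 1.23 in mature neutrophils, and specific granule genes lie furthest to the left in lymphocytes, which do not make them.

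B cells of callus had lower levels of early and dividing-cell genes. Vpreb3 stood at 246 CPM against 1664 and Rag1 at 16.6 against 87.0, both markers of progenitor B cells, which were 15 of 639 cells in callus and 84 of 336 in trabecular bone. Cell cycle genes were lower in 8 of 17 and all 17 ratios were below 0 (median -1.94). Ighd stood at 562 CPM against 121 and H2-Aa at 3091 against 720. The highest log2 ratios were those of Ttc39b (4.06), Egr3 (3.67) and Fyn (3.67), a kinase of antigen receptor signalling. The lowest were of granule genes, such as Lcn2 (19 UMIs against 1744) and Camp (28 against 2296). These are neutrophil genes. Camp stood at 1104 CPM in trabecular bone B cells, where the estimated free RNA would give 154. The part of doublets and of free RNA in this was not tested. The same genes were lowest in T and NK cells, with Ngp at 6 UMIs against 1464 in 61 cells.

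In T and NK cells Il2rb, a subunit of the IL-2 and IL-15 receptors, stood at 2035 CPM against 624, Nkg7, of cytotoxic granules, at 201 against 858, and the stem cell factor receptor Kit at 126 against 7.34. NK or innate lymphoid-like cells were 143 of 448 in callus and 7 of 61 in trabecular bone. Hmox1 (heme oxygenase 1) had the highest log2 ratio, 4.12, on 183 UMIs against 1. Serpine2 and Hist1h2ap followed, with 106 and 91 UMIs against 0. In erythroid cells the globin genes were lower in callus, with Hba-a1 at 15033 CPM against 70225, and free RNA, read from specific granule genes, was estimated at 20.5% of the UMIs in trabecular bone. None of 17 cell cycle genes was called in erythroid cells, where only 0.553% of all tested genes were called higher and 0.375% lower.

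Expression was not compared over the whole monocyte class, because of the doubt about the name of cluster 7. Instead cluster 7 of callus (545 cells) was set beside cluster 10 of trabecular bone (296 cells), and 351 of 8263 genes were higher (4.25%) and 458 lower (5.54%). The clusters were formed on these genes, so the values are a description. Cell cycle genes were lower in 16 of 17, with Top2a at 7.07 CPM in callus and 370 in trabecular bone. Azurophil granule genes were lower in 5 of 5, with Prtn3 (proteinase 3) at 6.68 CPM against 1187. Cluster 10 passed 7 of 7 monocyte markers. Its 10 leading genes held 2 of its own class and 2 of granulocyte-monocyte progenitors, Prtn3 and Ctsg. The part of progenitors in cluster 10 in these values was not tested. Antigen presentation and dendritic cell genes were higher in 4 of 5, with H2-Aa at 1527 CPM against 43.0 and Cd74, the invariant chain, at 3932 against 169. Hmox1 stood at 4302 CPM against 34.9, Slc7a11, a cystine transporter, at 2434 against 27.6, and the lipid genes Cd36 and Apoe at 214 and 1380 against 2.17 and 105. Ly6c2 stood at 529 against 2228.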

How the data were processed

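The authors deposited unnormalized counts of UMIs per gene and barcode. Per the labels the libraries were prepared with a 10x Genomics kit, and the submitters' processing notes name Cell Ranger 5.0.1, Seurat 3.2.0 and mm10. Both matrices list all 6794880 possible barcodes. No deposited cell annotation was used. Gene positions were taken from GENCODE M21, which matched 32235 of 32285 genes.

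Counts were analysed with Python 3.11.15, scipy 1.17.1, scikit-learn 1.9.0, numpy 2.4.6, igraph 0.11.9, leidenalg 0.10.2, pandas 2.3.3 and matplotlib 3.10.9. Scripts were tested on simulated data. Intervals are exact Poisson for CPM, Clopper-Pearson for shares and exact conditional for ratios, and a count of 0 was given a floor of 3 UMIs. Both libraries were clustered together on 2000 variable genes, 30 components, 15 neighbours and Leiden resolution 1, and 2 of 34 clusters were divided again, which gave 41. A cluster took a name from at least 3 markers, each at least 2-fold over the median of the other clusters and in at least 10% of cells. Each marker also had to reach 10% of its level in the highest cluster. A name was withdrawn where low UMIs went with leading genes that lacked its markers or held another group's. It was also withdrawn where at least 2 of the 10 leading genes marked another group and fewer marked its own. This rule was finalised with the clusters in view. Doublets were kept, and an alternative removed 407 and 127 cells by simulated pairs.

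Named genes are the members of 31 lists (340 of 341 genes found), the 15 highest and 15 lowest log2 ratios among genes of at least 50 CPM, and the 5 highest and lowest of each class that stood at least 3 times over free RNA. The members and lists were chosen with earlier results of these data known. With 1 library a side no test across genes was possible.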

Additional observations from a re-analysis of the deposited data

Results flagged for a closer look

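Barcodes with at least 500 UMIs but under 200 genes, which the cell rule removed, held hemoglobin UMIs. They were 254 barcodes in control callus, with 48.0% of their UMIs from hemoglobin genes, and 202 in control trabecular bone, with 91.1%. Both shares stood above that of the cells kept, 0.106% and 3.99%, and no comparison above used these barcodes.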

How the results depend on the processing

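No paired analysis was possible because each tissue had 1 library, and none could be left out. Values give genes higher, genes lower, or shares, in callus unless stated. Shares with another cutoff for cells, resolution or marker scoring came from naming the clusters again. With at least 1000 genes 17.2% of callus cells were left unnamed. Adding 5 CPM gave 1018 higher and 465 lower, a minimum of 20 CPM 1109 higher, and the mean of per-cell CPM 352 lower. Hematopoietic cells alone, a choice made after seeing the data, gave 929 and 199. The cartilage share was 41.0% with at least 1000 UMIs, 55.3% with at least 1000 genes and 79.7% with a cutoff at 10% of the 99th percentile of UMIs among the 3000 largest. It was 41.4% at resolution 0.5, 39.0% at resolution 2 and 41.1% with markers scored against the mean. Without clusters 5 and 30, a choice made after seeing the data, it was 28.2%. The neutrophil share was 21.9% with at least 1000 UMIs, 2.56% with at least 1000 genes, 0.1004% above the percentile cutoff, 15.3% at resolution 2, 1.56% with markers scored against the mean and 1.56% with cluster 0 unnamed, also chosen after seeing the data. In trabecular bone it was 66.3% with at least 1000 genes and 70.7% without erythroid cells. Within neutrophils, adding 1 CPM gave 367 lower, adding 20 CPM 237 higher and 54 lower, subtracting free RNA 212 lower, median of ratios scaling 236 lower, and leaving out cluster 0 121 higher and 66 lower. Within B cells, adding 1 CPM gave 272 lower, adding 20 CPM 54 and 48, at least 200 UMIs 55 and 91, and thinning cells to 1000 UMIs 74 and 81. Within T and NK cells, adding 20 CPM gave 34 and 17, at least 200 UMIs 35 and 11, thinning 87 and 13, and median of ratios scaling 62 lower. Among the named genes called higher or lower in the main run, Pf4 changed direction, to 0.29 with the mean of per-cell CPM. No other called gene among them did under the alternatives checked. Directions with hematopoietic cells alone were not checked. Changes of direction in named genes that were not called were not counted. Thinning left 1450 of 1737 callus neutrophils, with 404 higher and 140 lower. The causes were not tested.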
